A study of Mus musculus with 10 samples.

Results

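The genes described here are Gata3, Il1rl1, Areg, Pparg, Klrg1, Il1r2 and Ccr3, 7 of the 55291 genes in the deposited count table. They were chosen by symbol, as genes known from regulatory T (Treg) cells of non-lymphoid tissue and from the receptor ST2. Earlier results of these data were known at that choice. All 7 passed the filter on low counts and were among the 20068 genes tested. Transcripts were measured by RNA sequencing of sorted Treg cells in 3 groups, named from the sample titles. The Hepa1-6 group, with 4 libraries, holds Treg cells from tumours of Hepa1-6, a mouse hepatoma line, taken at day 23 after injection. The E.G7 group, with 2 libraries, holds Treg cells from tumours of E.G7, a mouse T lymphoma line derived from EL4 that carries ovalbumin, taken at day 21. The LN group, with 4 libraries, holds lymph node Treg cells from mice without a tumour. All groups were labelled with the Foxp3YFP-cre genotype, in which the Foxp3 gene drives a fluorescent Cre protein. Tumour cells were injected under the skin, and tumour Treg cells were sorted from isolated CD4+ T cells. The labels give neither age nor sex, and tissue, tumour, day and cell isolation cannot be told apart between the groups. Nor is it stated whether replicates are different animals, so the p-values reflect variation among libraries that could be technical in part or whole.

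Some Treg cells live in non-lymphoid tissue, where they are known for tissue repair as well as for immune suppression. Many carry ST2, the receptor encoded by Il1rl1 that binds the alarm cytokine interleukin-33 together with the shared chain IL-1RAcP. GATA3 is the factor of type 2 immunity that binds at Il1rl1 and supports ST2-bearing Treg cells, PPAR-gamma is the lipid-sensing nuclear receptor best known from fat-tissue Treg cells, KLRG1 marks differentiated Treg cells, IL-1R2 is the decoy receptor for interleukin-1, CCR3 is the eotaxin receptor, and amphiregulin, the product of Areg, is an epidermal growth factor family ligand that acts in tissue repair.

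Library totals ran from 22665563 to 26665325 counts. Levels are given as CPM, counts scaled to a common library total, here after trimmed-mean (TMM) scaling. The summed level of 6 Treg markers was 3477 to 3624 CPM in Hepa1-6 libraries, 2658 to 2733 CPM in E.G7 libraries and 2283 to 2492 CPM in LN libraries. The higher tumour sums came from Ctla4, at 1410 ± 23.7 CPM in Hepa1-6, 1261 ± 45.5 CPM in E.G7 and 410.2 ± 11.2 CPM in LN, and from Tnfrsf18. By edgeR's test, 2 of the 6 were higher and 3 lower in Hepa1-6 against LN, and 2 were higher and 4, Foxp3 among them, lower in E.G7 against LN. Shares over all genes tested stand in the next paragraph. Foxp3, the defining Treg factor, averaged 82.0 ± 11 CPM in Hepa1-6 libraries, 50.2 ± 4.34 CPM in E.G7 libraries and 109 ± 10.8 CPM in LN libraries (SD, n = 4, 2 and 4). The tumour libraries also held transcripts of other cells. The summed level of 9 macrophage markers was 3323 to 3662 CPM in Hepa1-6 libraries and 680 to 720.4 CPM in E.G7 libraries, against 24.6 to 35.8 CPM in LN libraries. The part of such transcripts in the differences below was not tested.

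Of the 7 genes, 6 were higher in Hepa1-6 than in LN libraries and 5 were higher in E.G7 than in LN libraries. Higher here means an adjusted p under 0.05 in edgeR's quasi-likelihood test, adjusted over all genes tested by Benjamini-Hochberg. Of all genes tested, 37% were higher and 31.1% lower in Hepa1-6 against LN, and 32.7% were higher and 27.2% lower in E.G7 against LN. None of the 7 was lower in either comparison. Counting both directions, 68% of all genes passed the threshold in Hepa1-6 against LN and 59.9% in E.G7 against LN. The median log2 fold change over the 7 genes was 3.20 in Hepa1-6 against LN, beside 0.039 over all genes tested, and 1.63 in E.G7 against LN, beside 0.013 over all genes. In Hepa1-6 against E.G7, 6 of the 7 were higher, where 26.1% of all genes were higher and 19.6% lower, 45.6% in all. Ranges of the 2 groups stayed apart for 6 of the 7 genes in Hepa1-6 against LN, 5 in E.G7 against LN and 6 in Hepa1-6 against E.G7, which held for 61.8%, 69.2% and 58% of all genes tested. Both comparisons with LN use the same 4 LN libraries. Each count covers 7 genes that were chosen by name, with earlier results of these data known. They are not independent of each other.

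**Figure D1:**
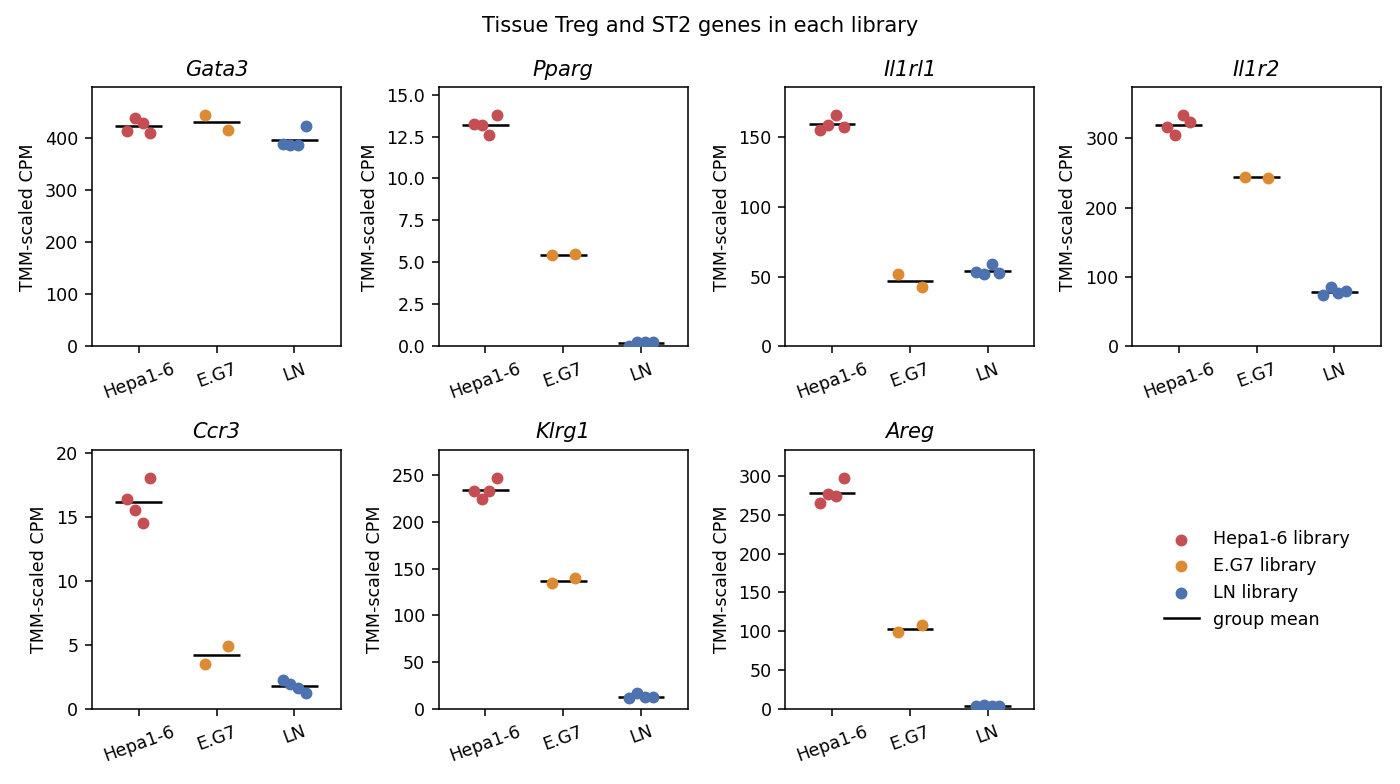
Level of each gene in each of the 10 libraries, in TMM-scaled CPM on a linear axis from 0, with a line at the group mean. Pparg, Il1r2, Ccr3, Klrg1 and Areg step up over LN in both tumours, Il1rl1 stands apart in Hepa1-6, and the Gata3 points of the 3 groups lie between 387 and 445 CPM.

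Gata3, the type 2 factor of the set, was at close levels in the 3 groups. It read 414, 439, 429.8 and 409 CPM in Hepa1-6 libraries, 445 and 416 CPM in E.G7 libraries, and 389, 387, 387 and 423 CPM in LN libraries. The libraries of the groups overlapped, with LN replicate 4 inside the range of the tumour libraries and the other LN libraries below it. The log2 difference was 0.09 ± 0.05 (SE) in Hepa1-6 against LN, with an adjusted p of 0.0914 by edgeR's quasi-likelihood test and a 95% interval from -0.01 to 0.19. In E.G7 against LN it was 0.12 ± 0.06, with an adjusted p of 0.0887 and an interval from -0.004 to 0.24. Both intervals hold only small differences, and neither comparison passed the threshold. The call depended on scaling and on LN replicate 4: without that library the adjusted p was 0.036 in Hepa1-6 against LN and 0.0396 in E.G7 against LN. Scaling on 10 pan T cell genes moved the median of all genes by 0.29 and 0.30 on the log2 scale and gave 0.39 and 0.42 for Gata3. Upper-quartile scaling moved that median by -0.18 in Hepa1-6 against LN and turned the Gata3 difference to -0.09. Hepa1-6 and E.G7 libraries did not differ past the threshold, at -0.02 with an interval from -0.15 to 0.10. Gata3 lies on the minus strand of chromosome 2, at 9857078 to 9890034 of mm10, and its exons overlap those of Gm13256 and 9230102O04Rik. Both overlapping genes were below 1 CPM in every group mean, and the sources used here do not give a strand setting for the counting.

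Genes that work with GATA3 in type 2 immunity moved in both directions. Of 10 tested partners and type 2 genes, 3 were higher, 2 lower and 5 not past the threshold in Hepa1-6 against LN. In E.G7 against LN, 1 was higher, 4 lower and 5 not past it. The Hepa1-6 counts are near or under the 37% higher and 31.1% lower of all genes tested. The E.G7 counts stand beside 32.7% higher and 27.2% lower. Stat6, which carries the interleukin-4 signal, averaged 360 ± 27.2 CPM in Hepa1-6 libraries, 234 ± 26.8 CPM in E.G7 libraries and 386 ± 16.0 CPM in LN libraries. Il4ra, the interleukin-4 receptor chain, averaged 360 ± 3.23 CPM in Hepa1-6 libraries, 247 ± 21.5 CPM in E.G7 libraries and 367 ± 11.02 CPM in LN libraries. Both were lower in E.G7 against LN, with log2 differences of -0.72 ± 0.08 and -0.57 ± 0.06 and adjusted p of 1.1e-06 and 5.52e-07 by edgeR. In Hepa1-6 against LN they were not past the threshold, at -0.10 and -0.03, and they turned to 0.19 and 0.27 with pan T cell scaling. Stat5b, which carries the interleukin-2 signal, was lower in both tumours, by log2 differences of -0.20 ± 0.06 in Hepa1-6 and -0.23 ± 0.08 in E.G7, with adjusted p of 0.00974 and 0.0159 by edgeR. With pan T cell scaling these were 0.10 and 0.07, and the call in E.G7 was lost without either E.G7 library, at adjusted p of 0.0922 and 0.0776.

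Pparg, the nuclear receptor, was low in every library and lowest in LN. It read 13.2, 13.2, 12.6 and 13.8 CPM in Hepa1-6 libraries, 5.43 and 5.48 CPM in E.G7 libraries, and 0.0395, 0.270, 0.281 and 0.272 CPM in LN libraries. The LN values rest on 1, 7, 7 and 7 counts, and the groups did not overlap. The level was 59.8-fold higher in Hepa1-6 than in LN, a log2 change of 5.90 ± 0.26 with an adjusted p of 8.22e-12 by edgeR. It was 24.7-fold higher in E.G7 than in LN, at 4.63 with an adjusted p of 1.59e-09. The step between the tumours was 1.27 on the log2 scale, higher in Hepa1-6, with an adjusted p of 0.000199 by edgeR. On the deposited FPKM scale with a pseudocount of 1, where low values shrink, the same comparisons with LN gave 2.34 and 1.40. The macrophage marker sums given above fell in the same order, Hepa1-6, E.G7, LN. The part of other cells in the Pparg difference was not tested.

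Of 13 tested PPAR-gamma partners and lipid targets, 9 were higher and 3 lower in Hepa1-6 against LN, and 8 were higher and 3 lower in E.G7 against LN. The shares over all genes tested were 37% higher and 31.1% lower in Hepa1-6, and 32.7% and 27.2% in E.G7. Lpl, which encodes lipoprotein lipase, averaged 230 ± 18.5 CPM in Hepa1-6 libraries, 8.23 ± 0.553 CPM in E.G7 libraries and 0.168 ± 0.0996 CPM in LN libraries. Plin2, a coat protein of lipid droplets, averaged 392 ± 14.0 CPM in Hepa1-6, 84.7 ± 6.59 CPM in E.G7 and 18.3 ± 0.757 CPM in LN. Both were higher in each tumour, Plin2 by 4.42 ± 0.06 and 2.21 ± 0.07 on the log2 scale with adjusted p of 8.3e-18 and 2.13e-13 by edgeR. Lpl is also strongly expressed by macrophages, whose markers were higher in both tumours (above). Ncor1, a corepressor, was lower in both, by -0.41 ± 0.06 and -0.23 ± 0.07 with adjusted p of 1.22e-05 and 0.0111 by edgeR. With pan T cell scaling Ncor1 did not pass the threshold in either comparison, at -0.12 in Hepa1-6 and 0.07 in E.G7, and its call in E.G7 was lost without E.G7 replicate 1, at 0.187.

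Il1rl1, which encodes ST2, was higher than in LN in Hepa1-6 but not in E.G7. It read 155, 159, 166 and 157 CPM in Hepa1-6 libraries, 51.9 and 42.5 CPM in E.G7 libraries, and 53.6, 51.6, 59.4 and 52.4 CPM in LN libraries. All Hepa1-6 libraries were above all others, while the E.G7 libraries overlapped the LN libraries. The level was 2.94-fold higher in Hepa1-6 than in LN, a log2 change of 1.56 ± 0.07 with an interval from 1.41 to 1.70 and an adjusted p of 1.01e-11 by edgeR. In E.G7 against LN the log2 difference was -0.20 ± 0.09, with an adjusted p of 0.0555 and an interval from -0.38 to -0.02 before adjustment. That call was close to the threshold: the difference was -0.34 with an adjusted p of 0.00917 without E.G7 replicate 1, -0.23 with 0.0375 without LN replicate 2, and -0.32 with 0.00558 under upper-quartile scaling. With pan T cell scaling it was 0.10. The difference between the tumours, tested directly, was 1.76 ± 0.09 with an adjusted p of 2.86e-10 by edgeR, higher in Hepa1-6. The counts are per gene and do not separate the membrane form of ST2 from its soluble form. In bulk libraries such as these, fewer cells with a transcript and less transcript per cell cannot be told apart.

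Il1rl1 lies on the plus strand of chromosome 1, at 40429570 to 40465415 of mm10. RefSeq start sites give it a distal and a proximal promoter window of 300 bases each on build GRCm38.p6, from 250 bases before to 50 bases after the start. They are shown because Il1rl1 is the gene whose call against LN differed between the tumours and GATA3 is its known regulator. Capitals mark the GATA letters searched on both strands, AGATAA or TGATAA, which 18.6% of all 32851 RefSeq promoter windows of this length hold. The distal window at chr1:40429320-40429619 holds 2 matches and the proximal window at chr1:40439379-40439678 holds 1. Both windows are printed on the plus strand, which is the strand of the gene.
Il1rl1 distal window: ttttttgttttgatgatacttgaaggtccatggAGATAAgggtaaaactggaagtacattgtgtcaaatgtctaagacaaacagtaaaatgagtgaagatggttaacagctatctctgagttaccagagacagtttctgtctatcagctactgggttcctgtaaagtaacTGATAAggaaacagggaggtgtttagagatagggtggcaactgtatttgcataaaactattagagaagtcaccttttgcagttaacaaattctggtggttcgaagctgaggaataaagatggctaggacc
Il1rl1 proximal window: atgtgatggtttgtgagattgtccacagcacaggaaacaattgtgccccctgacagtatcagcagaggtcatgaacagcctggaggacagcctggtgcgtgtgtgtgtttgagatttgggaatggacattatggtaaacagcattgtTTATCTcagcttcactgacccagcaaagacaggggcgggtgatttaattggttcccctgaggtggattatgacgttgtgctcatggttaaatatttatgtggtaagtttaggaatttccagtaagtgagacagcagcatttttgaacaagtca
Of the other promoter windows found, the Il1r2 window and the Ccr3 window hold 1 GATA match each. The Gata3 window, the Areg window and the 3 Pparg windows hold none of these letters. Such a match is a description of the letters in the window only.

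The partners of ST2 moved in both directions. Of 13 genes of IL-33 receptor signalling, 7 were higher, 3 lower and 3 not past the threshold in Hepa1-6 against LN, with a median of 0.17 on the log2 scale. For all genes tested, 37% were higher and 31.1% lower there. In E.G7 against LN, 4 were higher, 4 lower and 5 not past it, with a median of 0.01. That split is near the 32.7% higher and 27.2% lower of all genes tested. Il33, the ligand, had 700 counts over the Hepa1-6 libraries (7.21 ± 0.316 CPM), 15 counts over the E.G7 libraries (0.278 ± 0.185 CPM) and 0 counts over the LN libraries. Against a floor of 3 counts over the LN libraries it was at least 245-fold higher in Hepa1-6 and at least 9.42-fold higher in E.G7. Its call in E.G7 was lost on the log2(FPKM + 1) scale, with an adjusted p of 0.145 by limma. Il33 is known mainly from stromal, epithelial and myeloid cells rather than from Treg cells. Il1rap, the shared signalling chain, averaged 17.6 ± 4.29 CPM in Hepa1-6 libraries, 14.0 ± 1.59 CPM in E.G7 libraries and 22.6 ± 2.69 CPM in LN libraries. It was lower in both, by -0.36 ± 0.15 with an adjusted p of 0.0427 in Hepa1-6 and by -0.69 ± 0.19 with 0.00551 in E.G7 by edgeR. The call in Hepa1-6 was lost when any 1 of 8 of the 10 libraries was left out, with adjusted p from 0.0503 to 0.133, and in E.G7 it was lost without E.G7 replicate 2, at -0.57 with 0.0796. With pan T cell scaling both calls were lost, at -0.07 and -0.38.

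Sigirr, an inhibitory receptor of this family, was lower in both tumours, by -0.46 ± 0.05 in Hepa1-6 and -0.63 ± 0.06 in E.G7 on the log2 scale, with adjusted p of 6.85e-07 and 3.71e-07 by edgeR. Tollip, an inhibitory adaptor, was higher in both, by 1.01 ± 0.07 and 1.06 ± 0.09 with adjusted p of 4.24e-09 and 2.75e-08. Traf6, the ubiquitin ligase that passes the signal on, averaged 137 ± 6.62 CPM in Hepa1-6 libraries, 116 ± 17.9 CPM in E.G7 libraries and 109.7 ± 2.76 CPM in LN libraries. It was higher in Hepa1-6 by 0.32 ± 0.07 with an adjusted p of 0.000497 by edgeR, and 0.14 with 0.0772 under upper-quartile scaling. Traf6 in E.G7 against LN was at 0.08 with an adjusted p of 0.415.

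Il1r2, the decoy receptor for interleukin-1, was higher in both tumours. It read 317, 305, 334 and 324 CPM in Hepa1-6 libraries, 245 and 243 CPM in E.G7 libraries, and 73.6, 85.1, 76.2 and 80.3 CPM in LN libraries. No library of one group fell in the range of another. The level was 4.06-fold higher in Hepa1-6 than in LN and 3.10-fold higher in E.G7 than in LN, log2 changes of 2.02 ± 0.06 and 1.63 ± 0.06 with adjusted p of 2.15e-14 and 4.33e-12 by edgeR. Among the 6 genes that were higher in Hepa1-6 than in E.G7, Il1r2 had the smallest step, 0.39 ± 0.07 with an adjusted p of 0.000134.

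Il1r2 and Il1rl1 belong to 1 gene cluster on chromosome 1. Il1r2 lies at 40074079 to 40125231 on the plus strand, 304338 bases before the start of Il1rl1, and Il18r1 begins 136 bases after the end of Il1rl1. The genes between and beyond them did not share 1 pattern. Levels of different genes are compared here per kilobase of the deposited gene length. Il1r1, the signalling receptor for interleukin-1, was low, at 0.319 ± 0.0845 CPM per kilobase in Hepa1-6, 0.459 ± 0.00312 in E.G7 and 0.117 ± 0.0376 in LN. Like Il1r2, Il1r1 was higher in both tumours, by log2 1.44 ± 0.30 in Hepa1-6 and 1.96 ± 0.34 in E.G7. The adjusted p were 0.000497 and 0.000111 by edgeR. Il1r2 stood at 168 ± 6.28 CPM per kilobase in Hepa1-6, 128 ± 0.608 in E.G7 and 41.3 ± 2.63 in LN, so the decoy was far above the signalling receptor in each of them. Il18r1, the neighbour of Il1rl1, was 98.1 ± 3.41 CPM in Hepa1-6, 58.7 ± 4.24 CPM in E.G7 and 92.5 ± 5.43 CPM in LN. It did not pass the threshold in Hepa1-6 against LN (log2 0.09, adjusted p 0.227 by edgeR, and -0.10 under upper-quartile scaling) and was lower in E.G7 against LN (-0.66 ± 0.08, adjusted p 2.31e-06). Il18rap, the accessory chain of the interleukin-18 receptor, was higher in both, by 1.98 ± 0.09 and 1.02 ± 0.10 with adjusted p of 1.08e-11 and 4.27e-07. Il1rl2, the interleukin-36 receptor, was higher in Hepa1-6 and lower in E.G7 (1.00 ± 0.20, adjusted p 0.000445, and -0.66 ± 0.27, adjusted p 0.0457, by edgeR). It was named after its values were seen.

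**Figure D2:**
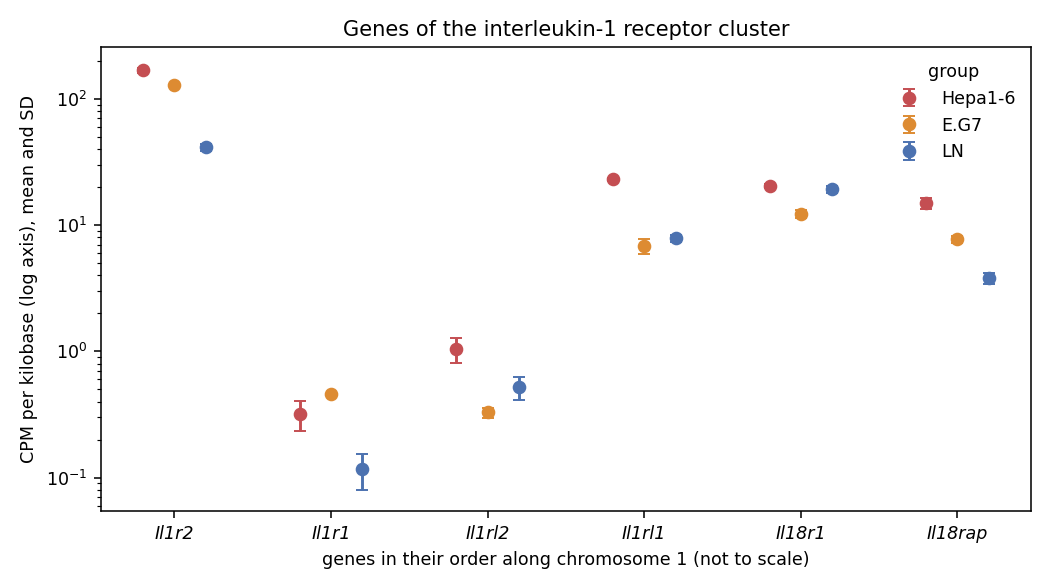
Mean level with SD of the genes of the interleukin-1 receptor cluster, in CPM per kilobase on a log axis, in their order along chromosome 1 and not to scale. Il1r2, Il1r1 and Il18rap step up over LN in both tumours, Il1rl1 and Il1rl2 stand above LN in Hepa1-6 only, and Il18r1 is lowest in E.G7.

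The interleukin-1 ligands were higher as well. Of 9 tested ligands and receptors of interleukin-1 and interleukin-18, 8 were higher and 0 lower in Hepa1-6 against LN, and 6 were higher and 3 lower in E.G7 against LN. Beside these counts, 37% of all genes tested were higher and 31.1% lower in Hepa1-6, and 32.7% and 27.2% in E.G7. Il1b averaged 142 ± 6.41 CPM in Hepa1-6 libraries and 17.5 ± 0.718 CPM in E.G7 libraries, and had 4 counts in all over the LN libraries. Il1a averaged 18.4 ± 2.07 CPM in Hepa1-6, 0.923 ± 0.308 CPM in E.G7 and 0.108 ± 0.0805 CPM in LN. Il1rn, the receptor antagonist, averaged 210.1 ± 14.1 CPM in Hepa1-6, 20.7 ± 1.79 CPM in E.G7 and 0.834 ± 0.234 CPM in LN. All these ligands are textbook products of macrophages, dendritic cells or neutrophils, whose marker sums are given below.

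Ccr3, the receptor for eotaxins known best from eosinophils and type 2 T cells, was low and followed the order Hepa1-6, E.G7, LN. It read 16.4, 15.6, 14.6 and 18.1 CPM in Hepa1-6 libraries, 3.53 and 4.93 CPM in E.G7 libraries, and 2.25, 1.93, 1.61 and 1.24 CPM in LN libraries. The groups did not overlap, and the LN libraries held 179 counts in all. The level was 9.16-fold higher in Hepa1-6 than in LN (log2 3.20 ± 0.19, adjusted p 3.04e-10 by edgeR) and 2.40-fold higher in E.G7 than in LN (1.27 ± 0.22, adjusted p 0.000154). The step between the tumours was 1.93 ± 0.22 with an adjusted p of 2.57e-06 by edgeR. Eosinophil markers moved the same way: 6 such genes summed to 29.0 to 41.7 CPM in Hepa1-6 libraries, 1.73 to 2.90 CPM in E.G7 libraries and 0 to 0.522 CPM in LN libraries. Of the defining eosinophil granule genes, Epx was at 0.0103 CPM in Hepa1-6, 0 in E.G7 and 0.01004 in LN, and Prg2 at 0.567 CPM in Hepa1-6, 0.295 in E.G7 and 0.0293 in LN. Most of the sum came from Ear2, at 29.9 CPM in Hepa1-6, 1.24 in E.G7 and 0.0195 in LN, which myeloid cells other than eosinophils also express. Siglecf was at 2.86 CPM in Hepa1-6, 0.408 in E.G7 and 0.11 in LN, and Il5ra at 1.03, 0.371 and 0. Of 4 tested eosinophil markers, 4 were higher in Hepa1-6 and 3 in E.G7 against LN by edgeR. Among all genes tested these shares were 37% and 32.7%. The part of such cells in the Ccr3 difference was not tested. Ccr3 lies on the plus strand of chromosome 9, at 124021972 to 124031689, among other chemokine receptors. Its neighbour Ccr2 averaged 534 ± 22.1 CPM in Hepa1-6, 193 ± 9.28 CPM in E.G7 and 28.8 ± 1.57 CPM in LN, and was chosen for its place after its values were seen.

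All 5 tested ligands of CCR3 were higher in Hepa1-6 against LN, and 4 of 5 in E.G7 against LN. Across all genes tested, 37% and 32.7% were higher in these comparisons. Ccl5, which T cells also make, averaged 369 ± 21.2 CPM in Hepa1-6, 117 ± 9.67 CPM in E.G7 and 3.59 ± 0.398 CPM in LN. Ccl24, an eotaxin known from macrophages, averaged 300.7 ± 28.6 CPM in Hepa1-6 libraries and 0.148 ± 0.0533 CPM in E.G7 libraries, and had 1 count over the LN libraries. The Ccl24 count ratio in E.G7 against LN was 15.1, with a counting interval from 2.02 to 668.5, and its test in that comparison had an adjusted p of 0.00377 by edgeR and 0.144 on the log2(FPKM + 1) scale by limma. Ccl7 and Ccl8 averaged 104 ± 11.9 and 61.4 ± 8.20 CPM in Hepa1-6, and 4.27 ± 0.160 and 3.20 ± 0.414 CPM in E.G7. In LN libraries Ccl7 had 2 counts and Ccl8 averaged 0.354 ± 0.171 CPM. Ccl11, an eotaxin, was near its limit, with 29 counts in Hepa1-6 libraries, 1 in E.G7 libraries and 0 in LN libraries, at least 10.1-fold higher in Hepa1-6 than in LN. It was the ligand not past the threshold in E.G7 against LN, with an adjusted p of 0.344 by edgeR.

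Klrg1, the inhibitory lectin-like receptor, was higher in both tumours. It read 233, 225, 233 and 247 CPM in Hepa1-6 libraries, 135 and 140 CPM in E.G7 libraries, and 11.2, 16.6, 12.4 and 12.7 CPM in LN libraries. Every tumour library was above every LN library, and every Hepa1-6 library above both E.G7 libraries. The level was 17.7-fold higher in Hepa1-6 than in LN and 10.4-fold higher in E.G7 than in LN, log2 changes of 4.15 and 3.37 with adjusted p of 5.84e-15 and 5.39e-13 by edgeR. The step between the tumours was 0.77 with an adjusted p of 1.61e-05. KLRG1 is also carried by effector CD8 T cells and NK cells, whose 9 markers summed to 472 to 507 CPM in Hepa1-6 libraries, 129 to 132 CPM in E.G7 libraries and 29.5 to 33.9 CPM in LN libraries. Prf1 at 178 CPM and Cd8a at 130 CPM led the Hepa1-6 sum. By edgeR, 8 of the 9 were higher in Hepa1-6 and 7 in E.G7 against LN, beside 37% and 32.7% of all genes tested. Klrb1c went the other way, at 0.597 CPM in Hepa1-6, 0.924 in E.G7 and 0.981 in LN. Ncr1 was at 0.483 CPM in Hepa1-6, 0.111 in E.G7 and 0 in LN. The part of these cells in the Klrg1 difference was not tested. Klrg1 lies on the minus strand of chromosome 6, at 122270596 to 122282882.

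The genes of the KLRG1 ligand and of the phosphatases listed with it did not share 1 direction. Cdh1, which encodes the ligand E-cadherin, averaged 19.6 ± 3.07 CPM in Hepa1-6, 2.81 ± 0.751 CPM in E.G7 and 0.728 ± 0.439 CPM in LN, higher in both tumours with adjusted p of 4.31e-09 and 5e-04 by edgeR. E-cadherin is an epithelial protein, and 8 hepatoma markers summed to 1503 to 1623 CPM in Hepa1-6 libraries, 4.24 to 4.60 CPM in E.G7 libraries and 6.11 to 7.44 CPM in LN libraries. Inpp5d, which encodes the lipid phosphatase SHIP1, was higher in Hepa1-6 against LN (0.47 ± 0.06, adjusted p 8.85e-06 by edgeR) and not past the threshold in E.G7 (-0.17, adjusted p 0.0749). It was called lower in E.G7 without E.G7 replicate 1, at -0.33 with 0.00382, and stood at 0.14 with pan T cell scaling. Ptpn11, which encodes SHP-2, was higher in E.G7 (0.48 ± 0.11, adjusted p 0.00111) and in Hepa1-6 (0.25 ± 0.09, adjusted p 0.0211). In Hepa1-6 that call was lost without Hepa1-6 replicate 1, LN replicate 1 or LN replicate 2, at adjusted p of 0.0792, 0.0512 and 0.0676, and under upper-quartile scaling, at 0.514. Ptpn6, which encodes SHP-1, was lower in Hepa1-6 against LN by -0.29 ± 0.05 with an adjusted p of 3.71e-05 by edgeR, and at 0 with pan T cell scaling. Ptpn6 in E.G7 against LN was at 0.13 with an adjusted p of 0.0576.

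Areg, the ligand of the set, had the largest fitted fold change in Hepa1-6 against LN, within the error of that of Pparg. It read 265, 276, 274 and 298 CPM in Hepa1-6 libraries, 98.4 and 108 CPM in E.G7 libraries, and 4.15, 4.63, 4.34 and 3.85 CPM in LN libraries. The 3 groups formed separate steps with no overlap. The level was 65.5-fold higher in Hepa1-6 than in LN (log2 6.03 ± 0.08, adjusted p 4.48e-18 by edgeR) and 24.3-fold higher in E.G7 than in LN (4.60, adjusted p 9.17e-16). The step between the tumours was 2.70-fold (1.43, adjusted p 3.44e-10). Macrophages, mast cells and basophils can also make amphiregulin. The 10 mast cell and basophil markers summed to 40.2 to 63.6 CPM in Hepa1-6 libraries, 53.6 to 55.3 CPM in E.G7 libraries and 7.48 to 10.04 CPM in LN libraries, and 7 of them were at 0 in LN. Cpa3, a mast cell protease, made up most of the E.G7 sum, at 4.73 ± 2.56 CPM in Hepa1-6, 33.7 ± 0.255 CPM in E.G7 and 1.70 ± 0.563 CPM in LN. The group means of the other 9 markers were each higher in Hepa1-6 than in E.G7, led by Kit at 22.6 ± 3.30 CPM in Hepa1-6, 14.3 ± 1.22 CPM in E.G7 and 6.09 ± 1.302 CPM in LN. The part of these cells in the Areg difference was not tested.

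The Areg promoter window from RefSeq, on the plus strand of GRCm38.p6 at chr5:91139349-91139648, is shown because it holds a cyclic AMP response element, TGACGTCA, in capitals. Of all 32851 windows, 1.79% hold these letters.
Areg window: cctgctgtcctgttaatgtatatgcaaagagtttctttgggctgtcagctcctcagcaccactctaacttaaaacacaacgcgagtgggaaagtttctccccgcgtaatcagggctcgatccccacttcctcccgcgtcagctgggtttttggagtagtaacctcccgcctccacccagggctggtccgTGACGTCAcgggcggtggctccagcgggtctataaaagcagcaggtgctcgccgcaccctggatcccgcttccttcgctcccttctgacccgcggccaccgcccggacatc
The 8 other windows of these genes hold no such match, and the Ccr3 window alone holds the AP-1 letters TGANTCA, found in 7.81% of all windows. The gene body of Areg lies at 91139599 to 91148432 of chromosome 5, and that of Pparg at 115360951 to 115490399 on the plus strand of chromosome 6.

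Other genes of the epidermal growth factor family were mostly higher in Hepa1-6. Of 9 tested ligands, receptors and the shedding enzyme, 7 were higher and 1 lower in Hepa1-6 against LN, and 4 were higher and 2 lower in E.G7 against LN. All genes tested gave 37% higher and 31.1% lower in Hepa1-6, and 32.7% and 27.2% in E.G7. Hbegf, another ligand, averaged 77.3 ± 5.98 CPM in Hepa1-6, 10.4 ± 0.436 CPM in E.G7 and 2.56 ± 1.03 CPM in LN, with adjusted p of 1.22e-11 and 2.06e-06 by edgeR. Adam17, the protease that sheds amphiregulin from the membrane, averaged 251 ± 11.4 CPM in Hepa1-6, 161 ± 5.91 CPM in E.G7 and 118 ± 7.30 CPM in LN, and was higher in both tumours (log2 1.08 ± 0.06 in Hepa1-6 and 0.45 ± 0.07 in E.G7). Egfr, the receptor of amphiregulin, averaged 8.25 ± 1.20 CPM in Hepa1-6, 0.425 ± 0.0756 CPM in E.G7 and 0.595 ± 0.518 CPM in LN. It was higher in Hepa1-6 with an adjusted p of 2.79e-07 by edgeR. In E.G7 the log2 difference was -0.47 with 0.498, and 0.32 without LN replicate 3. Erbb3, a receptor of neuregulins, was higher in Hepa1-6 (1.06 ± 0.11, adjusted p 5.26e-07) and lower in E.G7 (-0.57 ± 0.15, adjusted p 0.00305 by edgeR). With pan T cell scaling the E.G7 difference was -0.27 and not past the threshold.

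**Figure D3:**
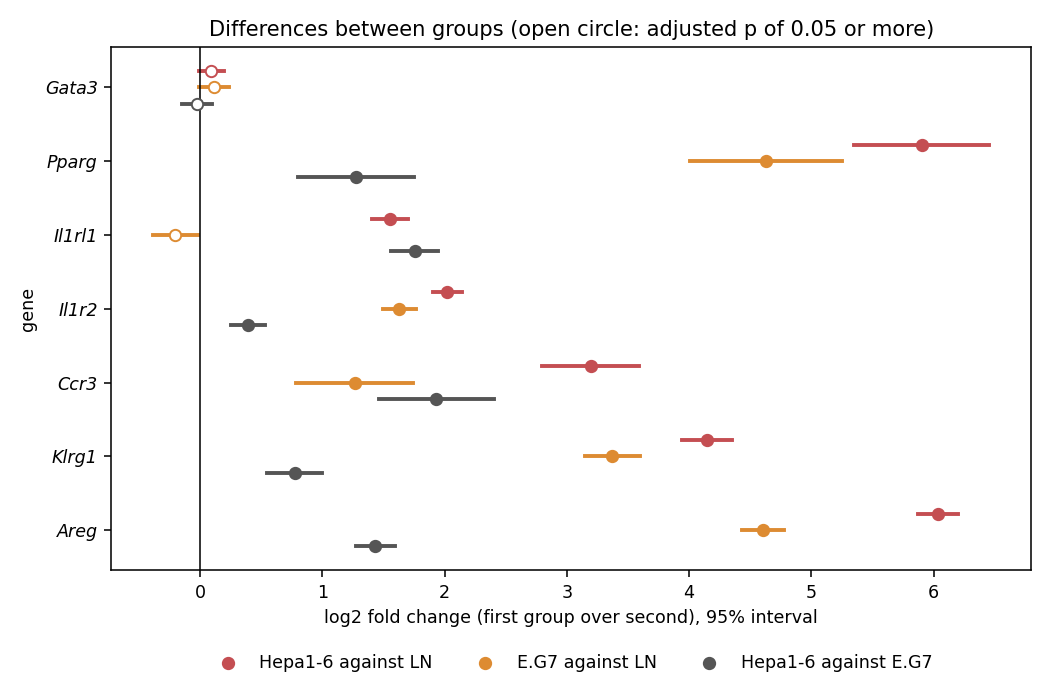
Log2 fold change of each gene in the 3 comparisons, first group over second, with 95% intervals, and open circles where the adjusted p was 0.05 or more. Open circles mark Gata3 in all 3 comparisons and Il1rl1 in E.G7 against LN, and Areg and Pparg lie farthest right against LN.

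Levels between genes are set in order per kilobase of the deposited gene length. In Hepa1-6 libraries the order was Areg at 229 ± 11.5 CPM per kilobase, Il1r2 at 168 ± 6.28, Klrg1 at 166 ± 6.62, Gata3 at 106 ± 3.53, Il1rl1 at 23.1 ± 0.690, Ccr3 at 4.93 ± 0.454 and Pparg at 4.47 ± 0.166. Neighbours within their spread were Il1r2 and Klrg1, and Ccr3 and Pparg. In E.G7 libraries Il1r2 led at 128 ± 0.608, followed by Gata3 at 108 ± 5.09, Klrg1 at 97.0 ± 2.74, Areg at 84.8 ± 5.41, Il1rl1 at 6.85 ± 0.957, Pparg at 1.85 ± 0.0140 and Ccr3 at 1.29 ± 0.303. In LN libraries Gata3 led at 99.7 ± 4.47, followed by Il1r2 at 41.3 ± 2.63, Klrg1 at 9.36 ± 1.64, Il1rl1 at 7.87 ± 0.511, Areg at 3.49 ± 0.270, Ccr3 at 0.537 ± 0.132 and Pparg at 0.0730 ± 0.0398. Klrg1 and Il1rl1 lay within their spread of each other in LN. Areg thus led in Hepa1-6 and stood below Il1rl1 in LN, while Gata3 stood below Klrg1 in Hepa1-6 and led in LN.

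Across the 10 libraries Areg, Pparg, Klrg1 and Il1r2 were close to each other, with Pearson correlations of log2 CPM from 0.987 to 0.999. Ccr3 lay between 0.903 and 0.938 with these 4 and at 0.890 with Il1rl1, and Gata3 between 0.338 and 0.689 with the other 6. These correlations are descriptions over 10 libraries that fall in 3 groups, so they mostly restate the order of the group means. Among 9804 genes with at least 10 CPM in 1 group, the closest to Il1rl1 were Sulf2 at 0.996, Vcam1 at 0.996 and Tnfrsf1a at 0.995. Vcam1, an adhesion molecule, averaged 42.2 ± 2.08 CPM in Hepa1-6, 4.96 ± 0.609 CPM in E.G7 and 5.61 ± 0.372 CPM in LN. The closest to Areg were Ptpro, Id2 and Col3a1, each above 0.99, as were 2.44% of all candidates. Id2, a helix-loop-helix inhibitor, averaged 1015 ± 44.5 CPM in Hepa1-6, 622 ± 2.37 CPM in E.G7 and 104 ± 3.37 CPM in LN, whereas Ptpro and Col3a1 were at 0 in LN. The closest to Pparg were Mpzl1, Srgap3 and Blnk. Klrg1 was closest to Il1r2, Gpi1 and Ifitm2, and Il1r2 to Nfkbib, Klrg1 and Gpi1. Ccr3 was closest to Lyst, Cav2 and Batf2. Gata3 had only weaker likenesses, led by Med26 at 0.971, Ogfod2 at 0.925 and Fbxo42 at 0.924.

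Other regulators and receptors of tissue Treg cells were largely higher in both tumours. Of 12 such genes, 11 were higher and 0 lower in Hepa1-6 against LN, and 10 were higher and 2 lower in E.G7 against LN, with medians of 1.60 and 1.26 on the log2 scale. Among all genes tested, 37% were higher and 31.1% lower in Hepa1-6, and 32.7% and 27.2% in E.G7. Ccr8, a chemokine receptor of tissue and tumour Treg cells, averaged 693 ± 40.0 CPM in Hepa1-6, 417 ± 9.75 CPM in E.G7 and 97.9 ± 3.31 CPM in LN. Tigit, an inhibitory receptor, averaged 873 ± 47.4 CPM in Hepa1-6, 668 ± 7.39 CPM in E.G7 and 124 ± 2.50 CPM in LN. Tnfrsf18, which encodes the co-stimulator GITR, averaged 652 ± 14.6 CPM in Hepa1-6, 445 ± 10.5 CPM in E.G7 and 287 ± 23.1 CPM in LN. All of these passed the threshold in both comparisons, with adjusted p of 4.53e-07 or lower by edgeR. Itgae, the integrin chain that binds E-cadherin, was the gene not past the threshold in Hepa1-6, and Itgae and Cd200r1 were the genes lower in E.G7, each named after its values were seen.

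**Figure D4:**
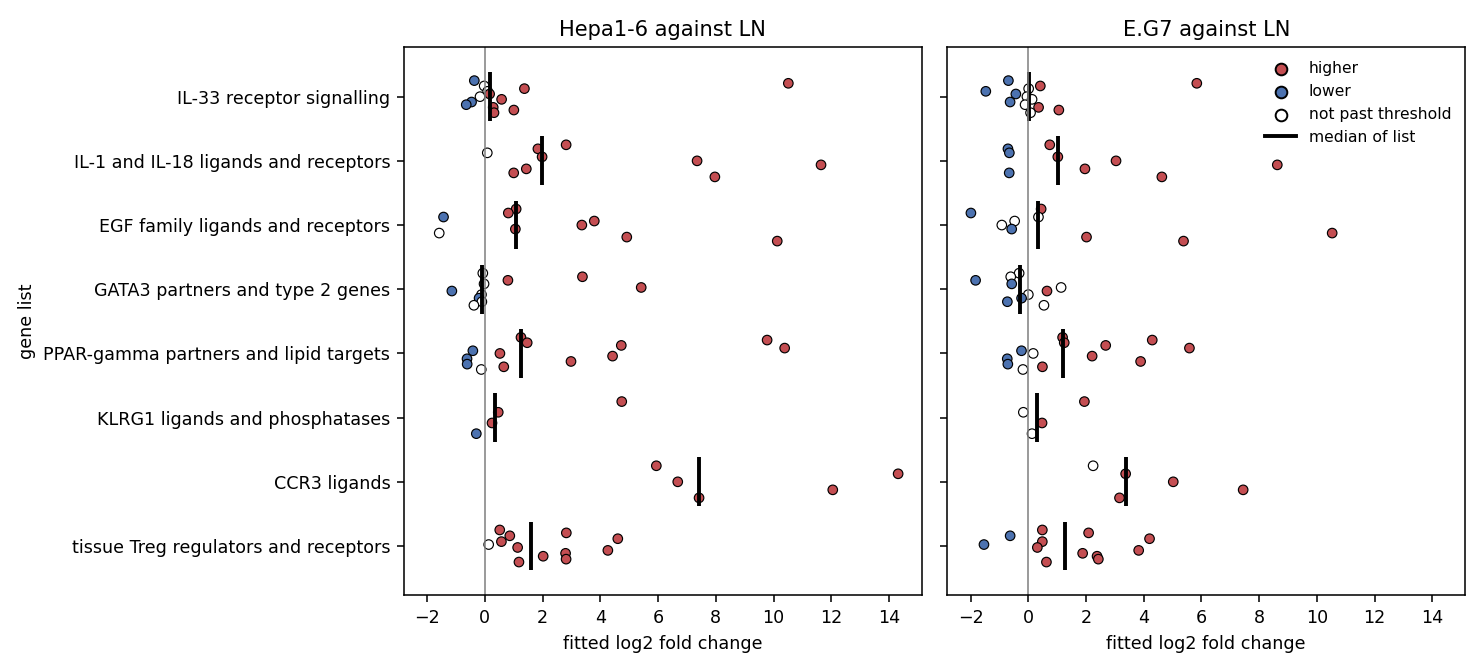
Fitted log2 fold change of each tested gene in the 8 lists around these genes, with filled points past the threshold, open points not past it and a bar at each list's median. The median of the CCR3 ligands lies at 7.42 in Hepa1-6 and 3.37 in E.G7 against LN, and that of the GATA3 partners at -0.09 and -0.27.

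Markers of other cell types moved with most of these results. All 9 macrophage markers and all 7 dendritic cell markers were higher in both tumours than in LN. Against LN, 37% of all genes tested were higher in Hepa1-6 and 32.7% in E.G7. The dendritic sum was 1381 to 1480 CPM in Hepa1-6 libraries, 290.4 to 299 CPM in E.G7 libraries and 15.7 to 17.5 CPM in LN libraries. The 8 neutrophil markers summed to 54.7 to 62.9 CPM in Hepa1-6, 7.36 to 8.17 CPM in E.G7 and 0.119 to 1.48 CPM in LN, where S100a9, Ly6g, Retnlg and Mmp8 were at 0. The 7 markers of type 2 innate lymphoid cells, which share ST2, GATA3, KLRG1 and amphiregulin with tissue Treg cells, summed to 1380 to 1446 CPM in Hepa1-6, 1153 to 1172 CPM in E.G7 and 820.5 to 848 CPM in LN. Most of that sum was Icos and Il7r, which T cells also express. The type 2 cytokine genes of the list were low and highest in Hepa1-6, Il5 at 1.89 ± 0.869 CPM in Hepa1-6, 0.0925 ± 0.0268 CPM in E.G7 and 0.0397 ± 0.0559 CPM in LN. Il13 was at 0.660 ± 0.323 CPM in Hepa1-6, 0.0368 ± 0.0520 CPM in E.G7 and 0.0587 ± 0.0502 CPM in LN. Il17rb, the receptor for interleukin-25, was lower in both tumours, at 2.52 ± 0.825 CPM in Hepa1-6, 6.40 ± 0.462 CPM in E.G7 and 12.6 ± 0.746 CPM in LN. These 3 genes were named after their values were seen. The 6 lymphoma markers summed to 64.2 to 75.4 CPM in Hepa1-6, 196 to 205 CPM in E.G7 and 17.6 to 20.01 CPM in LN. Most of the Hepa1-6 and LN sums was Cd8b1, at 66.5 ± 4.74 and 16.1 ± 1.11 CPM, also on the CD8 T and NK list. Trap1a at 126.7 CPM and Dntt at 46.6 CPM led the E.G7 sum, where Cd8b1 was at 27.1 CPM. Rag1 and Rag2 were at 0 in E.G7, and Ptcra was at 0.0554 CPM. The 5 B cell markers summed to 369 to 439 CPM in Hepa1-6, 621 to 629 CPM in E.G7 and 827 to 935 CPM in LN. The 7 stromal and endothelial markers summed to 199 to 211 CPM in Hepa1-6, 109 to 125 CPM in E.G7 and 222 to 239.8 CPM in LN. Most of the LN sum was Pecam1, at 72.6 ± 4.62 CPM in Hepa1-6, 78.7 ± 12.1 CPM in E.G7 and 228 ± 8.35 CPM in LN. The other 6 genes of that list were higher in both tumours than in LN by edgeR's test, with Col3a1 at 26.6 ± 2.28 CPM in Hepa1-6, 5.90 ± 0.195 CPM in E.G7 and 0 in LN. The sum of 10 pan T cell genes was lower in the tumours, at 5291 to 5460 CPM in Hepa1-6 and 5276 to 5355 CPM in E.G7, against 6314 to 6785 CPM in LN libraries. The part of these cell types in the differences was not tested.

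**Figure D5:**
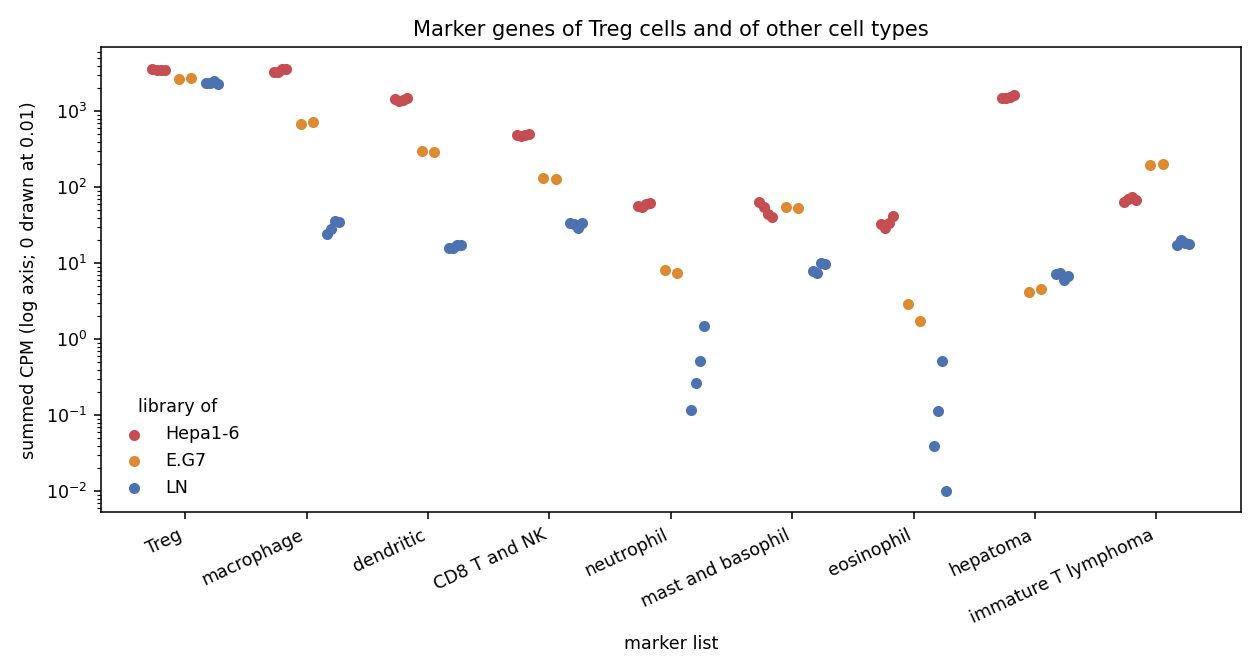
Summed CPM of marker genes in each library on a log axis, with a sum of 0 drawn at the foot of the axis. Macrophage, dendritic, CD8 T and NK, neutrophil and eosinophil sums fall in the order Hepa1-6, E.G7, LN. The Treg marker sums fall in the same order and lie between 2283 and 3624 CPM.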

How the data were processed

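RNA sequencing of sorted Treg cells from 10 libraries gave 3 groups, taken from the sample titles: Hepa1-6 (4), E.G7 (2) and LN (4). The authors deposited a table of whole-number read counts for 55291 genes with gene lengths, per the file headers. They also deposited FPKM values, which are scaled for gene length and library size, for 12930 genes in each library. The submitters' processing notes name HISAT2, featureCounts, Subread, RSEM and DESeq2 and the build mm10. Their versions, roles and strand setting are not given in the sources used here, and gene counts from unstated strand settings can include reads of antisense neighbours.

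The counts were tested in R 4.3.3 with edgeR 4.0.16: TMM scaling, genes with low counts removed by group, robust quasi-likelihood fits with 1 term per group over all 10 libraries, and Benjamini-Hochberg adjustment over 20068 genes at a threshold of 0.05. The biological coefficient of variation was 13%. Intervals are 95% and unadjusted. The fit was also run on simulated data in which few genes changed, which cannot test the scaling where most genes differ. Its outcome is not reported here. Levels are TMM-scaled CPM, with fitted correlations on log2 CPM at a prior count of 2. A fold against a group at 0 uses a floor of 3 counts over that group. Intervals of count ratios are exact, and they and the floors cover counting error only. Alternatives were RLE, upper-quartile and pan T cell scaling, no filter, DESeq2 1.42.0, only the groups compared, a replicate block, limma 3.58.1 on log2(FPKM + 1) and log2(FPKM + 0.1), and leaving out each library.

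Every pair of replicates differed by more than sampling noise, the chi-square over its degrees of freedom lying between 7.41 and 18.9. The members and lists were chosen with earlier results of these data known. The pathway lists hold 81 genes in 8 lists, of which Ereg, Epgn, Ptgdr2, Ppara, Cdh4 and Ccl28 fell under the filter. Of each list the text names the 3 genes with the highest mean CPM and the ligands or co-receptors of a member, and for each member the 3 genes with the highest correlation. Promoter windows come from RefSeq, where 6 of the 7 genes matched. No batch label was available for these libraries.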

Additional observations from a re-analysis of the deposited data

Results flagged for a closer look

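Among groups of 4 libraries, 80 were checked for a library far from the other 3, and 6 had one, Ccl24 among them. Chance gives about 1 in 20. Gata3 in LN replicate 4 was at 423.1 CPM, where the other LN libraries were at 386.8 to 388.9 CPM. Pparg in LN replicate 1 was at 0.0395 CPM, from 1 count, where the others were at 0.270 to 0.281 CPM. Traf6 in Hepa1-6 replicate 3 was at 146.6 CPM, where the others were at 133 to 134.1 CPM. Egfr in LN replicate 3 was at 1.37 CPM, where the others were at 0.277 to 0.427 CPM. Ccl24 in LN replicate 4 was at 0.0388 CPM, from 1 count, where the others were at 0; with 3 libraries at 0, any count in the other one meets the criterion, so this one says nothing beyond that count. Tigit in LN replicate 1 was at 127.8 CPM, where the others were at 122.7 to 123.1 CPM.

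The change against LN differed between the tumours in 6 of the 7 genes, tested as the contrast of Hepa1-6 against E.G7 in edgeR's quasi-likelihood fit. This is the same contrast as in the Results, and 45.6% of all genes tested passed the threshold in it. The log2 difference, Hepa1-6 minus E.G7, was 1.93 for Ccr3, 1.76 for Il1rl1, 1.43 for Areg, 1.27 for Pparg, 0.77 for Klrg1 and 0.39 for Il1r2. All Hepa1-6 libraries were above both E.G7 libraries for each of these 6 genes. Ranges of these groups stayed apart, in either direction, for 58% of all genes tested. Il9r, described under the other observations, differed by -1.79.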

How the results depend on the processing

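Values are log2 differences with adjusted p. Each of the 21 results of the 7 genes was recomputed under 20 alternatives. Of these 420 values, 403 kept direction and side of the threshold, 14 newly passed it and 3 turned round; none lost a call. The changes were in Gata3 and Il1rl1. Gata3 in Hepa1-6 against LN was 0.12 (0.0398) with RLE scaling, 0.12 (0.0453) with DESeq2, 0.39 (5.07e-06) with pan T cell scaling and -0.087 (0.113) with upper-quartile scaling. Leaving out single libraries gave 0.073 to 0.124. Gata3 in E.G7 against LN was 0.161 (0.0283) with RLE scaling, 0.16 (0.0281) with DESeq2 and 0.424 (1.84e-05) with pan T cell scaling, and 0.077 to 0.17 without single libraries. Gata3 in Hepa1-6 against E.G7 ranged from -0.077 to 0.017 without single libraries, the highest without E.G7 replicate 1. Il1rl1 in E.G7 against LN was -0.318 (0.00558) with upper-quartile scaling, 0.103 (0.382) with pan T cell scaling, -0.201 (0.0378) on log2(FPKM + 1), -0.201 (0.0403) on that scale without a filter and -0.226 (0.0343) on log2(FPKM + 0.1). It ranged from -0.343 to -0.059 without single libraries. The cause was not tested.

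Genes called in Hepa1-6 against LN numbered 13656, and 8868 on log2(FPKM + 1) and 8851 on log2(FPKM + 0.1), where 11324 genes were tested. Pan T cell scaling gave 70.2% of calls as higher in Hepa1-6 against LN, and upper-quartile scaling 45%, against 54.3% with TMM. In E.G7 against LN these were 70.5%, 48.3% and 54.6%. Among 33 named pathway genes, 1852 of the recomputed values kept their call, 27 newly passed the threshold, 55 lost it and 15 turned round. In Hepa1-6 against LN, Il18r1 turned to -0.096 with upper-quartile scaling, and with pan T cell scaling Stat5b to 0.095, Stat6 to 0.189 and Il4ra to 0.266. In E.G7 against LN, Traf6 turned to -0.038 with upper-quartile scaling, and with pan T cell scaling Stat5b to 0.074, Ncor1 to 0.069 and Inpp5d to 0.135. Without single libraries Traf6 there ranged from -0.08 (without E.G7 replicate 1) to 0.234, and Egfr from -0.709 to 0.323 (without LN replicate 3). In Hepa1-6 against E.G7, Stat5b was at -0.032 with upper-quartile scaling, -0.033 with no filter and -0.043 with only the groups compared, and from -0.001 (without Hepa1-6 replicate 2) to 0.084 without single libraries. Tollip there ranged from -0.176 to 0.066, the highest without E.G7 replicate 1.

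Titles number the replicates in each group. With group means removed, correlations of same-numbered libraries ran from -0.049 to 0.029. Such small values over all genes cannot show whether these libraries share an animal, a day or a preparation. With the number as a replicate block, 7325 genes were higher and 6065 lower in Hepa1-6 against LN, and no call among the 7 genes changed. Depth limits Pparg in LN, which rests on 22 counts, and E.G7 on 2 libraries.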

Other observations

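The genes given here belong to the surrounding lists and were picked after their values were seen. Il9r, the interleukin-9 receptor of type 2 cells, averaged 9.97 ± 1.40 CPM in Hepa1-6, 34.5 ± 1.54 CPM in E.G7 and 22 ± 0.381 CPM in LN libraries (SD, n = 4, 2 and 4). Against LN, Il9r was lower in Hepa1-6 and higher in E.G7 by edgeR's quasi-likelihood test, and all 60 recomputed values of its 3 comparisons kept direction and call. Erbb4, a receptor of the epidermal growth factor family, had 0 counts over the Hepa1-6 libraries, 1177 counts over the E.G7 libraries (21.8 ± 1.08 CPM) and 1 count over the LN libraries. Against a floor of 3 counts over the Hepa1-6 libraries, Erbb4 was at least 704.5-fold higher in E.G7. The E.G7 libraries also held the highest sum of immature T lymphoma markers, led by Trap1a and Dntt, while Rag1 and Rag2 were at 0 there. The part of lymphoma transcripts in the Erbb4 level was not tested.

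Tgfa, another ligand of the receptor of amphiregulin, averaged 27.5 ± 4.18 CPM in Hepa1-6 libraries and 1.02 ± 0.333 CPM in E.G7 libraries, and had 2 counts over the LN libraries.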
